A study of Homo sapiens with 12 samples.

Results

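The 139 transcripts described here are long noncoding RNAs named only by a LINC number that were detected in HEK293 Flp-In cells with altered TAF5. They were selected from a table of 32010 genes, as the rows typed lncRNA whose name is LINC followed by digits alone and whose level averaged at least 0.5 CPM (a read count scaled to the size of its library) over 12 libraries. Of 859 rows with such a name, 139 reached that level and 23 were listed at 0 in every library. Because the level chose the members, levels are given as a description. A scarce member can reach the limit through the groups where it is high. Of the furthest movers named below, LINC00173, LINC00242, LINC00404, LINC01234, LINC01301, LINC01915, LINC02226, LINC02361, LINC02482 and LINC02506 averaged under 0.5 CPM in some group. Their differences are not free of this selection. LINC01605 has 2 overlapping rows on the same strand, so the 139 rows carry 138 names. The members just inside the limit were LINC00882 at 0.504 CPM, LINC00449 at 0.514 and LINC01234 at 0.522, and the rows just outside were LINC01305 and LINC01530 at 0.489 and LINC00659 at 0.492. All 139 members also passed the filter on low counts and were tested.

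The libraries were made from the polyadenylated RNA of HEK293 Flp-In, a human embryonic kidney line built to take up a transgene at a chosen genomic site. Cells of the siNT group were given a control siRNA without a target, and those of siTAF5 an siRNA against the cell's own TAF5 mRNA. FL cells had that same siRNA followed by doxycycline to induce an siRNA-resistant TAF5 of full length (TAF5-FL), and ΔE8 cells had it followed by induction of a resistant TAF5 that lacks exon 8. Each group had 3 libraries, doxycycline was started 24 h after transfection and lasted 48 h, and the study asked whether exon 8 of TAF5 affects gene expression. All 12 libraries carry the treatment label siRNA+dox, and the labels do not say which Flp-In line was used for siNT and siTAF5, nor that replicates were separate cultures. The p-values below therefore measure the spread between these samples, which may be technical.

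TAF5 itself averaged 40 CPM in siNT (SD 0.698, n = 3, range 39.2 to 40.5) and 6.72 CPM in siTAF5 (SD 0.612, range 6.13 to 7.35). With the transgenes its mRNA averaged 105 CPM for FL (SD 2.44, range 103 to 107) and 88.0 CPM for ΔE8 (SD 0.757, range 87.5 to 88.9). Both add-back groups were thus above the siNT level of the mRNA, and FL was above ΔE8. Library totals ran from 41.8 to 62.5 M estimated counts. The kidney line markers PAX2, EYA1, NEFL, NEFM, VIM, KRT8 and KRT18 were detected in all libraries, and their sum, most of it VIM, was 1793 to 1862 CPM in siNT, 2022 to 2103 in siTAF5, 1819 to 1870.0 in FL and 2142 to 2191 in ΔE8. Of the blood markers, PTPRC, CD3E, HBB and LYZ reached at most 0.0801 CPM in any library, and CD68 was at 9.09 to 9.90 CPM in siNT, 6.06 to 7.34 in siTAF5, 7.49 to 9.09 in FL and 7.78 to 8.03 in ΔE8. Of the fibroblast markers, COL1A2 and DCN reached at most 0.0359 CPM, while the summed list, most of it COL1A1, was 16.9 to 17.5 CPM in siNT, 10.6 to 11.5 in siTAF5, 8.65 to 10.1 in FL and 8.30 to 8.90 in ΔE8. The part of these differences in the results below was not tested.

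Long intergenic noncoding RNAs are made by RNA polymerase II and are mostly capped, spliced and polyadenylated as mRNAs are, but hold no long reading frame known to be used. A LINC number is a placeholder for a transcript without a name drawn from its function or from a neighbouring gene. TFIID, of which TAF5 is a scaffold subunit, binds core promoters and starts assembly of the polymerase complex at coding and noncoding genes alike, and the level of a noncoding RNA also depends on how fast the nuclear exosome degrades it and on early termination by the Integrator complex.

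The first bases around the start sites of the members that moved furthest are shown here, since the start site is where TFIID acts. The members are those with the largest differences, higher or lower, in siTAF5 against siNT or ΔE8 against FL that had an entry among the promoter windows available to print. The sequences are from RefSeq (GRCh38.p14), 100 bases before and 50 bases after the annotated start, with the transcribed part in capitals.
LINC02482: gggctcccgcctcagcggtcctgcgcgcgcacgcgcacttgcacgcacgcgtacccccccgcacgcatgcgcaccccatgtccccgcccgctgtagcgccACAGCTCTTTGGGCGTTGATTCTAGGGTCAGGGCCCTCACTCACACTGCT
LINC01547: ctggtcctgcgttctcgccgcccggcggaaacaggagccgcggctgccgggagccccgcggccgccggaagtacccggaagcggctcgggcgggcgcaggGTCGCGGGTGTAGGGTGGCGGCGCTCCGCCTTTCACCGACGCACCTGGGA
LINC01976: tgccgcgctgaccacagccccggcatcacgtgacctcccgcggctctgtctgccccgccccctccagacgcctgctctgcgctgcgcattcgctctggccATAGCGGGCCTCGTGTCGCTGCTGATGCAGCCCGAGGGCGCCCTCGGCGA
LINC00957: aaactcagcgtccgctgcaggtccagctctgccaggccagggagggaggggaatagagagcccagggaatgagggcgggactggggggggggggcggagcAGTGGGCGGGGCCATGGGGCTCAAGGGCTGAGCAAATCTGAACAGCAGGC
LINC00404: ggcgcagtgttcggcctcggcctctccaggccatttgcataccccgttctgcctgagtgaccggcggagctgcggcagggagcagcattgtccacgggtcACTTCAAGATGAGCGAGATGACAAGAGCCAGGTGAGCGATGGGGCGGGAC
LINC02175: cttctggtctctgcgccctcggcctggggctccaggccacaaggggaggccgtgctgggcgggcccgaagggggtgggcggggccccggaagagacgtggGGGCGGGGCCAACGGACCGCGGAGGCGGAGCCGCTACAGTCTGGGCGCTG
LINC01234: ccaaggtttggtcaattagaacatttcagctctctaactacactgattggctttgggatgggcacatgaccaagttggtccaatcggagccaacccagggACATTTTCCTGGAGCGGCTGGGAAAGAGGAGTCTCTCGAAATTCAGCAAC
LINC02482 and LINC01547 led the rises after knockdown and LINC01976 and LINC00957 the falls, while LINC00404 and LINC02175 were among the members higher and LINC01234 the member furthest lower in ΔE8 against FL. These windows lie at chr4:6673832-6673981, chr21:44939864-44940013, chr17:43938161-43938310, chr7:44038949-44039098, chr13:112106580-112106729, chr16:25066787-25066936 and chr12:113773634-113773783, in the order printed, on the minus strand for LINC02482, LINC01547, LINC00404 and LINC01234 and on the plus strand for the others. The RefSeq start lay 4 to 253 bases from the start in the count table, furthest for LINC00404. LINC01915, also in this selection, has a RefSeq start 93631 bases away from its start in the table and is not printed.

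Among the printed promoters, 6 of 7 held 59.0% to 76.3% G and C over the full 300-base window, and that of LINC01234 held 51.0%. The window of LINC01915, which is not printed, was at 37.0%. In all, 99 members matched the RefSeq table, with 117 windows that run from 250 bases before to 50 after a start. Their median GC content was 61.0% and their median number of CpG dinucleotides 18, against 58.7% and 14 over all 35116 windows and 64.7% and 25 over the 16950 windows of tested protein-coding genes. The TATA box letters TATAAA were found on either strand in 12.8% of member windows, 11.5% of all windows and 6.80% of protein-coding windows. On the sense strand between 40 and 20 bases before the start, where a TATA box sits, they were found in 1 member window, that of LINC02901, or 0.855% against 2.30% of all windows and 1.76% of protein-coding ones. The letters CCAAT, on either strand, were in 44.4% of member windows, 34.6% of all and 34.5% of protein-coding windows. CCGGAAG, the core of an ETS site, was in 15.4% of member windows, 10.3% of all and 15.5% of protein-coding windows. Of the windows printed in part above, none held TATAAA, those of LINC01547 and LINC02175 held CCGGAAG, and that of LINC01234 held CCAAT. A match is a description of letters and not a site shown to be used.

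The word intergenic holds for only some of the members. In GENCODE release 29, 115 were typed lincRNA, 12 processed transcript, 7 antisense, 2 bidirectional promoter lncRNA, 2 sense intronic and 1, LINC02693, protein coding. The spans of 56 members overlapped no other gene of the table, and 83 overlapped at least 1, on the opposite strand for 71 and on the same strand for 30. Spans ran from 436 to 790897 bases with a median of 19058, merged exons from 428 to 28876 bases with a median of 2656, and 20 members lay on chromosome 1. The spans are those of the deposited counts and the merged exons those of GENCODE release 29, which gave the same span for 63 members. The library kit was stranded, but whether the counting used strand is not stated in the labels, so reads of a member and of a gene overlapping it cannot be told apart with certainty.

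Most LINC transcripts were scarce. Their median level was 1.69 CPM, in a range of 0.504 to 101, against 14 CPM for the 19424 genes tested. Under 1 CPM lay 47 members, 62 lay between 1 and 5 CPM and 30 at 5 CPM or more, and the 5 highest together held 42.1% of the summed level. LINC02693 was the most abundant, at 98.2 ± 1.87 CPM in siNT, 98.8 ± 1.69 in siTAF5, 102 ± 4.40 in FL and 103 ± 1.28 in ΔE8 (SD, n = 3 in each group). It passed the test in none of the 6 comparisons, with adjusted p from 0.0505 to 0.836 by edgeR, the tool used for every adjusted p below. Next came LINC00665, LINC00205, LINC02381 and LINC00662, then LINC02593, LINC01128 and LINC00963. Per kilobase of merged exon the order differed, with LINC02381 the highest of all 139 at 24.9 CPM per kilobase, LINC00665 at 10.8, LINC00205 at 8.69, the scarcer LINC01976 at 7.83 and LINC02693 at 6.80, against a median of 0.781 over the members. The exon lengths are those of GENCODE release 29, where only 63 of the 139 members had the span used for the counts. For the others the length may not match the counted transcript, so this order is approximate. Replicates of scarce members varied more: the median coefficient of variation was 16.5% under 1 CPM, 9.12% between 1 and 5 CPM and 3.97% above, and the median SE of a log2 difference 0.223, 0.130 and 0.060.

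After TAF5 knockdown, LINC transcripts moved both ways. In siTAF5 against siNT, 31 of the 139 rose (22.3%, where 24.7% of all 19424 genes tested rose) and 24 fell (17.3%, where 25% of all genes fell), at an adjusted p under 0.05. The members' median log2 difference was 0.009 and that of all genes 0.000. The members' shares are thus near or under those of the table as a whole. By level, 9 of 47 members under 1 CPM were called, 24 of 62 between 1 and 5 CPM and 22 of 30 above. Shares of all genes at these levels were not counted. The 1688 other lncRNA genes above 0.5 CPM had a like median level of 1.62 CPM. Of these 40.8% were called, against 39.6% of the members. For 65 members no siNT library fell within the siTAF5 range, nor the reverse; these are 46.8% of members, against 57.3% of all genes. DESeq2 called 27 members higher and 15 lower, so its number of falls was smaller by more than 1.5 times. Among all genes DESeq2 called 4179 higher and 4430 lower, so how far the members leaned upward depended on the tool. Less RNA per cell and fewer expressing cells cannot be told apart in such bulk libraries, and without a spike-in each change is relative to the bulk of genes.

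**Figure D1:**
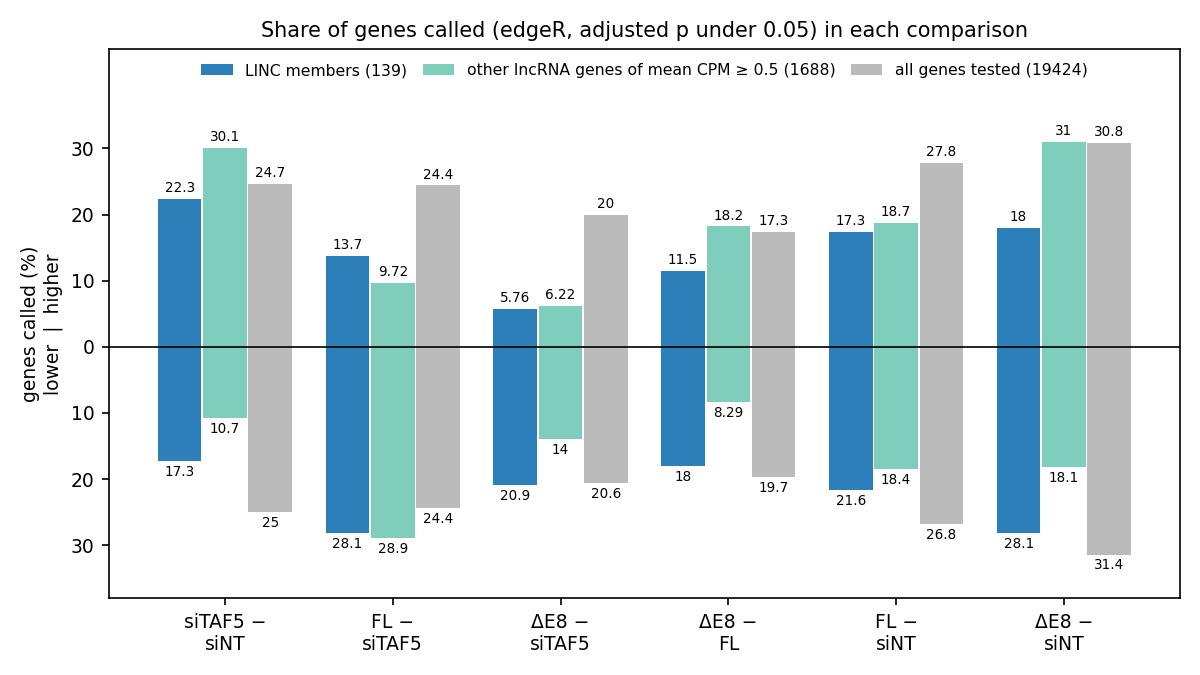
Share of genes called by edgeR at an adjusted p under 0.05, as percent higher (bars above 0) and percent lower (bars below 0), in 6 comparisons, for the 139 LINC members, the 1688 other lncRNA genes with a mean of at least 0.5 CPM and all 19424 genes tested. The members' bars for higher genes are shorter than the grey bars in every comparison, while 28.1% of members against 24.4% of all genes were lower in FL against siTAF5.

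LINC01547 (chr21:44932814-44939941, hg38, minus strand), which starts 71 bases from the start of SLX9, rose most clearly for its level. It measured 8.61, 8.41 and 8.34 CPM in siNT replicates 1 to 3 and 17.7, 16.8 and 17.3 CPM in siTAF5. No library of either group came near the other, and the rise was 2.04-fold (log2 difference 1.03, SE 0.047, adjusted p = 1.21e-12). LINC02482 had the largest fold, 2.18 (log2 1.12, SE 0.245, adjusted p = 0.000712), at a low level. Its values were 0.386, 0.314 and 0.359 CPM in siNT and 0.703, 0.915 and 0.684 CPM in siTAF5. LINC01301, of chromosome 8, went from 0.570, 0.529 and 0.635 CPM to 1.17, 1.21 and 1.105 CPM, a 2.01-fold rise (log2 1.00, SE 0.175, adjusted p = 7.61e-05) with no overlap of the groups.

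LINC00467 (chr1:211382736-211435570, plus strand) is a transcript reported to encode a small mitochondrial peptide that binds ATP synthase. It measured 7.42, 7.80 and 7.43 CPM in siNT and 14, 13.1 and 14.8 CPM in siTAF5, 1.85-fold higher (log2 0.89, SE 0.061, adjusted p = 4.24e-10). LINC02893 went from 6.51, 6.215 and 7.27 to 12.3, 11.3 and 11.5 CPM (1.76-fold, adjusted p = 1.31e-08), and LINC02916 from 0.754, 0.545 and 0.701 to 1.19, 0.915 and 1.25 CPM (1.68-fold, adjusted p = 0.00675). In each of these 3 the lowest siTAF5 library was above the highest siNT library. Among the abundant members, LINC00205 (chr21:45288035-45297806, plus strand) rose from 52.5, 49.6 and 49.8 CPM to 78.1, 82.4 and 80.6 CPM (log2 0.67, SE 0.034, adjusted p = 6.11e-12). LINC02593 rose from 19.1 ± 1.08 to 28.0 ± 2.53 CPM (adjusted p = 4.75e-07) and LINC01128 from 19.2 ± 0.892 to 22 ± 0.625 CPM (adjusted p = 0.000797; SD, n = 3 for all 4 values).

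LINC01976 (chr17:43938257-43938963, plus strand), a short transcript with 434 bases of merged exon, fell furthest after knockdown. It measured 5.13, 5.04 and 4.79 CPM in siNT and 2.41, 2.55 and 2.26 CPM in siTAF5, which is 2.07-fold lower (log2 -1.05, SE 0.10, adjusted p = 3.63e-08). LINC00957 fell from 1.47, 2.0 and 1.47 CPM to 0.937, 0.932 and 0.947 CPM (log2 -0.81, SE 0.178, adjusted p = 0.000769). LINC00896 fell from 2.39, 2.76 and 3.11 CPM to 1.34, 1.55 and 1.81 CPM (log2 -0.81, SE 0.161, adjusted p = 0.000297). For all 3 the highest siTAF5 library was under the lowest siNT library.

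LINC01694 of chromosome 21 measured 8.08, 7.835 and 7.46 CPM in siNT against 4.79, 4.96 and 4.47 CPM in siTAF5 (log2 -0.72, SE 0.087, adjusted p = 9.78e-07). LINC00460, a transcript often studied in tumours, fell from 3.61, 3.37 and 3.54 CPM to 2.17, 2.23 and 2.35 CPM (log2 -0.64, SE 0.108, adjusted p = 5.96e-05). Again neither pair of groups overlapped. LINC01234, at 0.681 ± 0.139 CPM in siNT and 0.434 ± 0.101 in siTAF5 (SD, n = 3), passed narrowly (log2 -0.64, adjusted p = 0.0448) and missed the threshold under 8 alternative settings, with adjusted p from 0.052 to 0.178. Among the abundant members, LINC00665, reported to encode a micropeptide that binds a phosphatase inhibitor, fell from 82.7, 81.0 and 85.5 CPM to 67.4, 65.3 and 67.1 CPM (log2 -0.32, SE 0.027, adjusted p = 8.88e-09). LINC00963 fell from 25.2 ± 0.314 to 20.1 ± 0.204 CPM, LINC02381 from 64.8 ± 2.93 to 56.3 ± 1.03 CPM and LINC00662 from 52.5 ± 1.33 to 49.3 ± 0.904 CPM (adjusted p = 1.44e-06, 0.000122 and 0.0437; SD, n = 3).

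**Figure D2:**
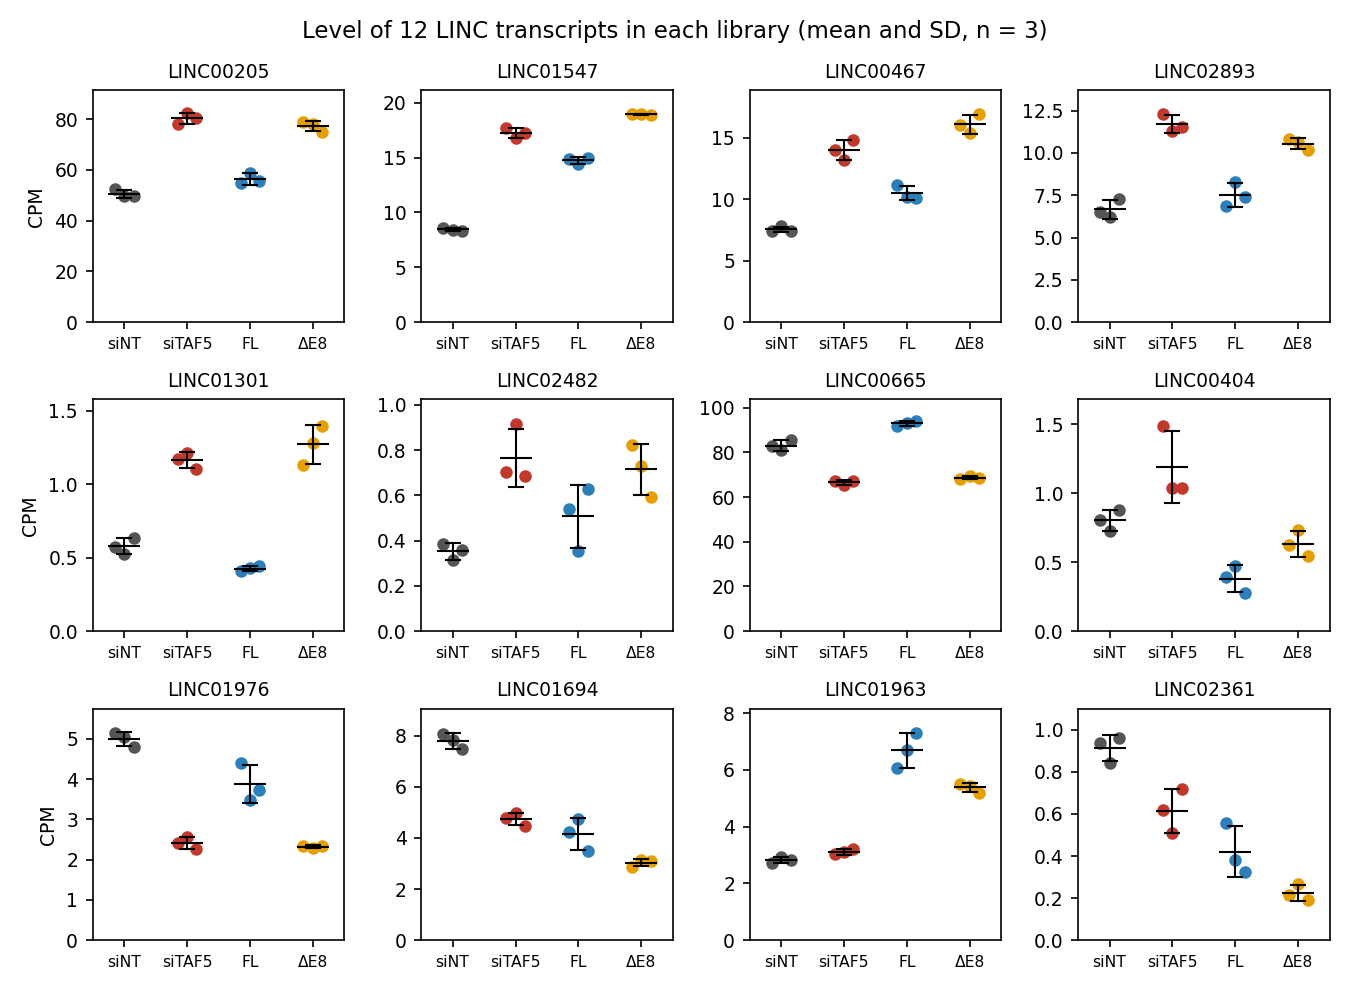
Level of 12 LINC transcripts in CPM in each of the 12 libraries (points), with the mean and SD of each group of 3 as black bars, on linear axes that start at 0. LINC00205, LINC02893 and LINC01301 stand high in siTAF5 and ΔE8 and low in siNT and FL, LINC00665 does the opposite, and LINC01963 is high in both groups with a TAF5 transgene.

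When the TAF5 supplied lacked exon 8, LINC transcripts differed both ways, in shares under those of all genes. In ΔE8 against FL, 16 members were higher (11.5%, against 17.3% of all genes) and 25 lower (18.0%, against 19.7% of all genes). FL and ΔE8 differ in the form of TAF5 supplied and in its mRNA level (105 and 88.0 CPM), which cannot be told apart here. The groups did not overlap for 55 members, 39.6% of them, against 45.7% of all genes. The median log2 difference was -0.001 for the members and -0.009 for all genes. Scaled by library totals alone, 19 members were higher and 23 lower, and among all genes 4072 were higher and 3184 lower.

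LINC01301 had the largest difference of any member called higher. It measured 0.409, 0.427 and 0.441 CPM in FL and 1.13, 1.28 and 1.40 CPM in ΔE8, 2.97-fold higher (log2 1.57, SE 0.190, adjusted p = 1.88e-06), and no library overlapped. LINC00467 went from 11.1, 10.2 and 10.1 CPM to 16, 15.4 and 16.9 CPM (log2 0.61, SE 0.059, adjusted p = 1.07e-07). LINC01232, which overlaps the membrane protein gene TM9SF2 on the other strand, went from 1.52, 1.33 and 1.44 to 2.07, 2.32 and 2.23 CPM (log2 0.62, SE 0.136, adjusted p = 0.00124). LINC02035 went from 3.63, 3.42 and 3.64 to 4.97, 5.04 and 5.53 CPM (log2 0.53, SE 0.085, adjusted p = 4.80e-05). All libraries of ΔE8 were above those of FL for these 4. LINC00404 (0.382 ± 0.0984 against 0.633 ± 0.0926 CPM, log2 0.74, adjusted p = 0.0287) and LINC02175 (0.542 ± 0.0332 against 0.840 ± 0.0695 CPM, log2 0.64, adjusted p = 0.0304; SD, n = 3) were also called. Each of these last 2 missed the threshold under 5 alternative settings, with adjusted p from 0.0526 to 0.116 and from 0.0702 to 0.0917.

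LINC01234, at a mean of 0.522 CPM over the 12 libraries, led the members that were lower in ΔE8. Its values were 0.736, 0.759 and 0.580 CPM in FL and 0.197, 0.303 and 0.356 CPM in ΔE8, 2.48-fold lower (log2 -1.31, SE 0.284, adjusted p = 0.00105). LINC01915 of chromosome 18 measured 0.736, 0.901 and 0.858 CPM in FL and 0.492, 0.410 and 0.309 CPM in ΔE8 (log2 -1.0, SE 0.233, adjusted p = 0.00192). LINC01976 measured 4.40, 3.49 and 3.74 CPM against 2.33, 2.30 and 2.35 CPM (log2 -0.75, SE 0.105, adjusted p = 1.18e-05). The 2 groups were apart for each of the 3. All ΔE8 libraries of LINC01234 and LINC01915 were under the 0.5 CPM limit, which these members reached through groups where they were higher.

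LINC00649, which starts head to head with the ATP synthase gene ATP5PO (280 bases between starts, with the 5′ ends overlapping), measured 2.08, 2.02 and 2.53 CPM in FL and 1.25, 1.46 and 1.23 CPM in ΔE8 (log2 -0.74, SE 0.147, adjusted p = 0.000497). LINC01806 measured 2.93, 2.56 and 3.57 CPM against 1.805, 1.62 and 2.18 CPM (log2 -0.70, SE 0.141, adjusted p = 0.000526). Both were lower in every ΔE8 library. LINC02361 (0.420 ± 0.121 against 0.223 ± 0.0396 CPM; SD, n = 3; log2 -0.93, adjusted p = 0.018) missed the threshold under 4 alternative settings, with adjusted p from 0.0562 to 0.172. LINC00665 stood at 93.0 ± 1.22 CPM in FL and 68.8 ± 0.508 CPM in ΔE8 (SD, n = 3; log2 -0.44, adjusted p = 3.41e-10), so ΔE8 lay near the siTAF5 level of 66.6 ± 1.16 CPM.

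Knockdown of TAF5 and the difference between the supplied forms could be set side by side, since siTAF5 against siNT and ΔE8 against FL share no library. Called in both were 26 members, and all 26 went the same way, 14 higher and 12 lower. Over all genes, 5589 were called in both and 97.3% of them went the same way, so this agreement is close to that of the table. Those 14 are 45.2% of the members that rose after knockdown and 87.5% of those higher in ΔE8 than in FL, and the 12 are 50% of the falls after knockdown and 48% of the members lower in ΔE8. Over all genes the same shares were 53.2%, 76.0%, 59.6% and 75.6%, and 28.8% of all genes were called in both against 18.7% of the members. After knockdown, 17 of the 31 rises and 12 of the 24 falls were not called in ΔE8 against FL. Across the 139 members the log2 differences of the 2 comparisons had a Pearson correlation of 0.70 and a Spearman correlation of 0.68, and across all genes 0.52 and 0.61. These are descriptions across genes, which are not independent replicates. Among the 14 were LINC00205, LINC00404, LINC00467, LINC01128, LINC01232, LINC01301, LINC01547, LINC01801, LINC02035, LINC02593 and LINC02893. Among the 12 were LINC00460, LINC00665, LINC00896, LINC01234, LINC01411, LINC01694, LINC01806, LINC01976 and LINC02361, and the other 3, named after their values were seen, were LINC00652, LINC00958 and LINC01515.

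**Figure D3:**
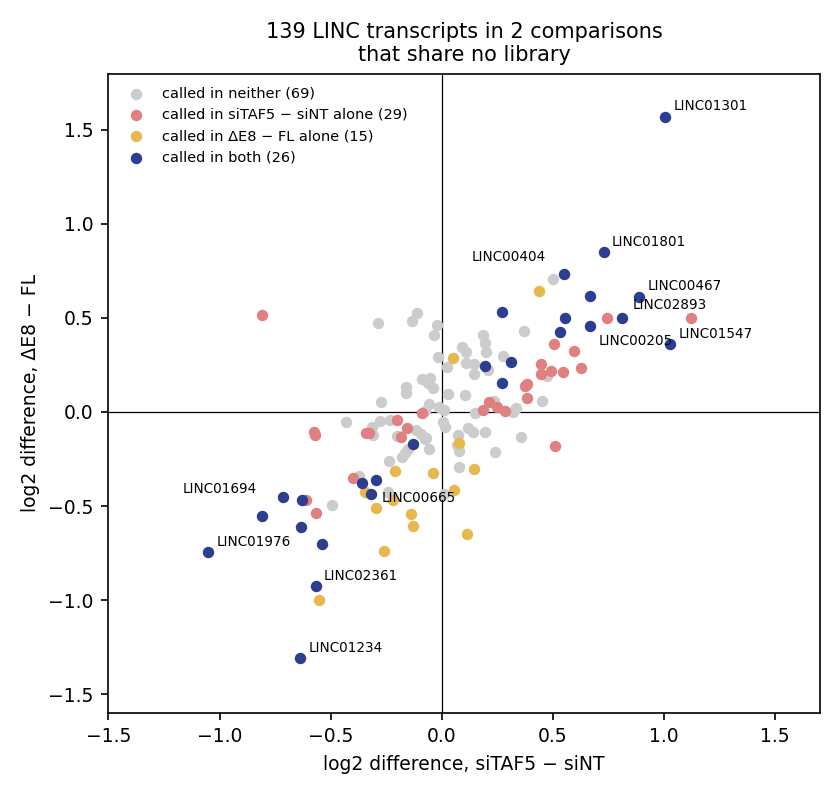
Log2 difference of each of the 139 LINC transcripts in siTAF5 against siNT (horizontal axis) and in ΔE8 against FL (vertical axis), coloured by the comparisons in which edgeR called it at an adjusted p under 0.05. The 26 members called in both lie at the upper right (14) or the lower left (12), with LINC01301 furthest up at 1.00 and 1.57.

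With full-length TAF5 added back, more LINC transcripts fell than rose. In FL against siTAF5, 19 members were higher (13.7%, against 24.4% of all genes) and 39 lower (28.1%, against 24.4% of all genes), with a median log2 difference of -0.131 against -0.005 for all genes. Scaled by library totals alone, 18 members were higher and 44 lower, and among all genes 3748 were higher and 5788 lower where the main scaling gave 4745 and 4732. The 1688 other lncRNA genes above 0.5 CPM leaned the same way, 164 higher (9.72%) and 487 lower (28.9%) with a median of -0.15. After knockdown alone that class leaned upward, with 508 higher, 180 lower and a median of 0.139 against the 0.009 of the LINC members. In ΔE8 against FL it had 307 higher and 140 lower with a median of 0.091.

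Among the members that rose with full-length TAF5, LINC01963 was the most abundant of those with large changes. It measured 3.02, 3.11 and 3.23 CPM in siTAF5 and 6.08, 6.69 and 7.31 CPM in FL, 2.13-fold higher (log2 1.09, SE 0.087, adjusted p = 2.59e-09), while siNT was at 2.82 ± 0.111 CPM (SD, n = 3). FL was thus above both groups without a transgene. LINC00242 rose from 0.426, 0.299 and 0.298 CPM to 0.965, 0.688 and 0.974 CPM (2.60-fold, adjusted p = 0.000262). All siTAF5 libraries of LINC00242 were under the 0.5 CPM limit, which it reached through groups where it was higher. LINC01806 rose from 1.46 ± 0.111 to 3.02 ± 0.512 CPM, LINC01411 from 1.65 ± 0.152 to 3.15 ± 0.117, LINC01915 from 0.430 ± 0.0794 to 0.832 ± 0.0859 and LINC02709 from 1.08 ± 0.111 to 1.87 ± 0.204 CPM (SD, n = 3; adjusted p = 4.92e-06, 1.76e-06, 0.00223 and 0.000273). No libraries overlapped for these 4, and for LINC01915 and LINC02709 the change after knockdown had not passed the test (adjusted p = 0.0559 and 0.129).

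LINC00404 fell furthest with full-length TAF5, from 1.49, 1.038 and 1.035 CPM in siTAF5 to 0.392, 0.474 and 0.278 CPM in FL, 3.07-fold lower (log2 -1.62, SE 0.235, adjusted p = 8.70e-06). The siNT libraries lay between, at 0.810, 0.727 and 0.880 CPM. LINC01301 fell 2.73-fold (log2 -1.45, SE 0.191, adjusted p = 2.65e-06), LINC01801 from 1.51 ± 0.282 to 0.672 ± 0.335 CPM (log2 -1.22, adjusted p = 0.000423) and LINC02506 from 1.03 ± 0.186 to 0.482 ± 0.0786 CPM (log2 -1.10, adjusted p = 0.000654; SD, n = 3). LINC00173 and LINC01703 fell to well under the siNT level. LINC00173 measured 1.10, 1.17 and 1.27 CPM in siNT, 1.00, 0.845 and 1.07 CPM in siTAF5 and 0.490, 0.474 and 0.348 CPM in FL (FL against siTAF5 log2 -1.13, SE 0.25, adjusted p = 0.000804). LINC01703 measured 2.69, 2.35 and 2.72 CPM in siNT, 2.73, 2.43 and 2.51 CPM in siTAF5 and 1.275, 1.565 and 1.276 CPM in FL (log2 -0.90, SE 0.139, adjusted p = 1.87e-05). For neither did siTAF5 against siNT pass the test (log2 -0.29, SE 0.21, and -0.02, SE 0.125; adjusted p = 0.278 and 0.915).

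Few LINC transcripts rose when the form without exon 8 was added back. In ΔE8 against siTAF5, 8 members were higher (5.76%, against 20% of all genes) and 29 lower (20.9%, against 20.6% of all genes), with a median log2 difference of -0.086 against -0.011. The number of falls dropped to 18 when siTAF5 replicate 2 was left out. Among the 56 members that overlap no other gene, 1 was higher (1.79%) and 14 were lower (25.0%). Among the 83 that overlap a gene, 7 were higher (8.43%) and 15 lower (18.1%). Of the 1688 other lncRNA genes above 0.5 CPM, 105 were higher (6.22%) and 236 lower. Their share of rises was thus near that of the members, and their share of falls was under it. A low share of rises was therefore not particular to the LINC members.

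LINC01963 was again among the rises, at 5.51, 5.43 and 5.20 CPM in ΔE8 (log2 0.79, SE 0.088, adjusted p = 7.45e-07), and LINC01411 rose to 2.295 ± 0.254 CPM (log2 0.47, adjusted p = 0.00476). LINC00667 rose from 15.4, 16.2 and 16.2 CPM in siTAF5 to 18.0, 18.9 and 18.1 CPM (log2 0.20, SE 0.052, adjusted p = 0.00351). LINC00467 and LINC01547, both already high after knockdown, were higher still, at 16, 15.4 and 16.9 CPM and at 18.9, 18.9 and 18.9 CPM (log2 0.20 and 0.14, adjusted p = 0.00715 and 0.0144). The call of LINC01547 was lost under 3 alternative settings (adjusted p from 0.051 to 0.0748), and that of LINC02226 (0.447 ± 0.102 against 0.847 ± 0.162 CPM; SD, n = 3; log2 0.91, adjusted p = 0.0094) under 1, at 0.059.

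Of the falls in ΔE8 against siTAF5, LINC02361 went furthest, from 0.617, 0.510 and 0.719 CPM to 0.213, 0.267 and 0.190 CPM (log2 -1.44, SE 0.276, adjusted p = 0.000307). All ΔE8 libraries of LINC02361 were under the 0.5 CPM limit, which it reached through groups where it was higher. LINC00649 fell from 2.53 ± 0.312 to 1.31 ± 0.127 CPM (log2 -0.94, adjusted p = 2.55e-05) and LINC00404 from 1.19 ± 0.262 to 0.633 ± 0.0926 CPM (log2 -0.88, adjusted p = 0.00227; SD, n = 3). LINC01686 stepped down through the groups, at 2.59, 2.93 and 2.44 CPM in siNT, 1.96, 1.97 and 2.105 CPM in siTAF5, 1.44, 1.33 and 1.30 CPM in FL and 1.02, 1.176 and 0.997 CPM in ΔE8. The 4 groups of LINC01686 did not overlap, and ΔE8 was below siTAF5 by an adjusted p of 2.11e-05 (log2 -0.92, SE 0.136), though ΔE8 against FL missed the threshold (adjusted p = 0.0651). LINC02506 and LINC01036 were lower as well (log2 -0.78 and -0.67, adjusted p = 0.00881 and 0.00584), and without siTAF5 replicate 2 neither passed (adjusted p = 0.0622 and 0.0745). That library had the highest LINC01036 level of all 12, 1.99 CPM, where the other siTAF5 libraries were at 1.49 and 1.19.

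In both add-back groups some members differed from the siNT level. In FL against siNT, 24 members were higher (17.3%, against 27.8% of all genes) and 30 lower (21.6%, against 26.8% of all genes). In ΔE8 against siNT, 25 were higher (18.0%, against 30.8% of all genes) and 39 lower (28.1%, against 31.4% of all genes). The members' medians were -0.047 and -0.108, and those of all genes 0.006 and -0.001. In FL the first rises were LINC01963 (2.36-fold), LINC00242 (1.85-fold) and LINC01547 (1.74-fold, from 8.46 ± 0.139 to 14.7 ± 0.308 CPM), with adjusted p = 5.03e-10, 0.00541 and 6.07e-11. The first falls in FL were LINC00957 (2.69-fold, to 0.608 ± 0.146 CPM), LINC00173 (2.67-fold, to 0.438 ± 0.0781 CPM) and LINC02361 (2.11-fold), with adjusted p = 3.29e-06, 4.67e-05 and 0.000584. In ΔE8 the first rises were LINC01547 (2.24-fold), LINC01301 (2.18-fold) and LINC00467 (2.13-fold), with adjusted p = 7.22e-14, 1.10e-05 and 5.93e-12. LINC02361 fell 4.02-fold there, from 0.914 ± 0.0627 to 0.223 ± 0.0396 CPM, LINC01694 2.57-fold, to 3.04 ± 0.147 CPM, and LINC01686 2.49-fold (adjusted p = 1.06e-06, 1.22e-10 and 2.88e-08; SD, n = 3 throughout). These comparisons share their siNT libraries with each other and with siTAF5 against siNT.

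**Figure D4:**
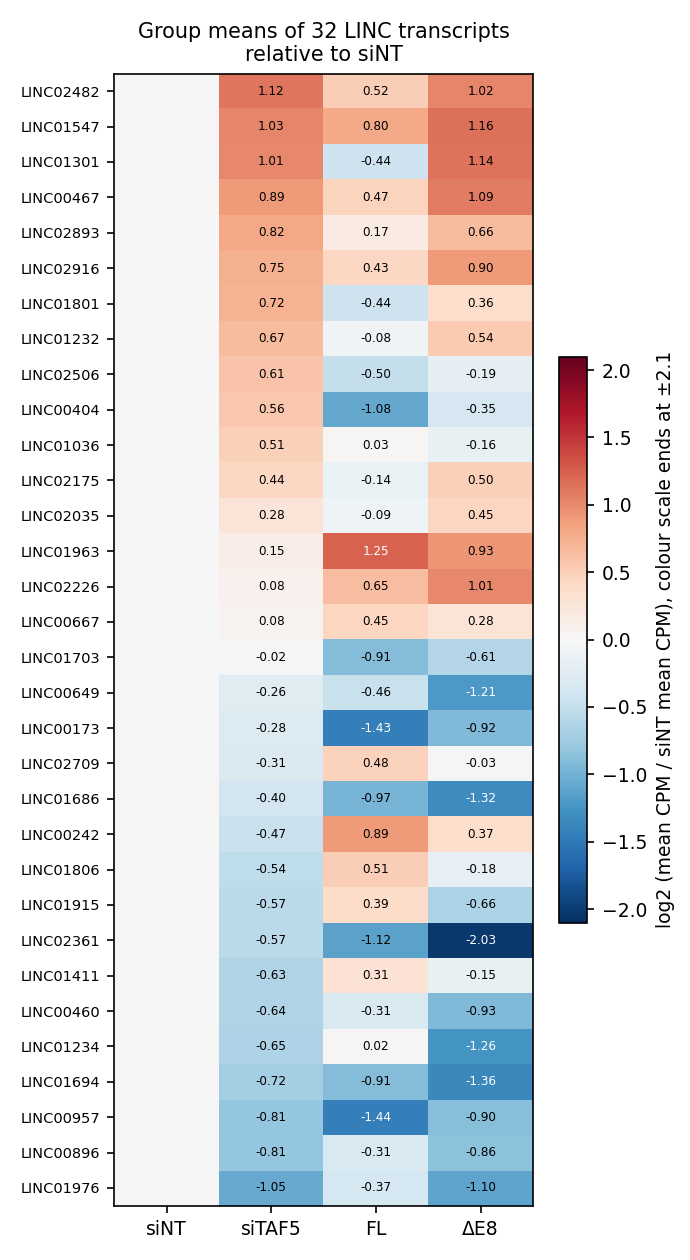
Group means of the 32 LINC transcripts named among the furthest movers, as log2 of the mean CPM over the siNT mean, ordered by the value in siTAF5, with a colour scale that ends at ±2.1. LINC01301, LINC01232 and LINC02035 are red in siTAF5 and ΔE8 and near or below 0 in FL, whereas LINC00173, LINC00957 and LINC01686 are blue in all 3 groups.

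Over the 6 comparisons, 97 members (69.8%) were called at least once, against 79.1% of all genes tested and 71.0% of the other lncRNA genes above 0.5 CPM, and 42 members were called in none. Called in all 6 were LINC00467, LINC01547 and LINC01515, or 2.16% of members against 6.19% of all genes. LINC01515 fell at each step, at 17.7, 17.1 and 17.9 CPM in siNT, 16, 16 and 16.1 CPM for siTAF5, 14.9, 14.1 and 13.8 CPM for FL and 12.8, 12.3 and 13.2 CPM for ΔE8, with no overlap between any of the groups. Its adjusted p ran from 3.28e-08 (ΔE8 against siNT, log2 -0.47) to 0.0206 (siTAF5 against siNT, log2 -0.13). Rises and falls nearly balanced in the pool: the summed level of the 139 members was 827.2 ± 6.18 CPM in siNT, 853.4 ± 7.34 in siTAF5, 816.8 ± 8.66 in FL and 823.4 ± 5.38 in ΔE8 (SD, n = 3). All 3 siTAF5 libraries, at 848.4 to 861.9 CPM, were above the other 9, the highest of which was at 831.3 CPM. Without the 5 most abundant members the sums were 478.0 ± 2.28, 502.1 ± 4.01, 466.1 ± 2.02 and 477.3 ± 6.28 CPM.

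The change of a member bore little relation to that of its nearest protein-coding gene. Over the 139 members and 129 distinct neighbours, the median distance was 16283 bases. The Spearman correlation of log2 differences was 0.01 for siTAF5 against siNT and 0.18 for ΔE8 against FL. In the other comparisons it was weakly positive as well, from 0.15 to 0.20. These are given as descriptions across genes. After knockdown, a member and its neighbour were both called in 37 cases, 21 in the same direction and 16 in opposite directions. In ΔE8 against FL it was 22 cases, 14 the same and 8 opposite. For 18 members after knockdown and 19 in ΔE8 against FL, the member was called and its neighbour was not.

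The 10 members that start head to head with that neighbour, at 57 to 604 bases between start sites, moved with it in some pairs and apart from it in others. LINC01547 rose 2.04-fold after knockdown, while SLX9, a ribosome assembly factor gene, went from 46.7 ± 5.12 to 53.2 ± 2.46 CPM (log2 0.19, SE 0.056, adjusted p = 0.00759). In ΔE8 against FL, LINC01547 was higher by a log2 of 0.36 (SE 0.044, adjusted p = 2.11e-06) and SLX9 by 0.06 (SE 0.056, adjusted p = 0.439). LINC01301 starts 121 bases from RAB2A, which encodes a small GTPase of ER to Golgi traffic. RAB2A stood at 68.9 ± 0.442 CPM in siNT, 66.2 ± 2.26 in siTAF5, 70.7 ± 2.12 in FL and 66.3 ± 1.82 in ΔE8, so that it was slightly lower in ΔE8 than in FL (log2 -0.09, SE 0.032, adjusted p = 0.0279) where LINC01301 was higher. ATP5PO was at 287 ± 2.10 CPM in FL and 321 ± 10.4 in ΔE8 (log2 0.16, adjusted p = 3.65e-05) where LINC00649 was lower.

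Further pairs of this kind were picked after their values were seen. LINC00205 starts 137 bases from POFUT2, an O-fucosyltransferase gene, which went from 31.1 ± 0.383 to 33.7 ± 2.33 CPM after knockdown (SD, n = 3; log2 0.12, SE 0.048, adjusted p = 0.0404) beside the rise of 0.67 in LINC00205. LINC01424 rose from 1.37 ± 0.169 to 1.94 ± 0.118 CPM (log2 0.50, adjusted p = 0.0183) while UBE2G2, a ubiquitin-conjugating enzyme gene that starts 57 bases away, fell from 237.2 ± 1.38 to 215.8 ± 1.71 CPM (log2 -0.14, adjusted p = 2.03e-05; SD, n = 3). Of the 10, 4 pairs were both called after knockdown, 3 in the same direction, and 3 pairs were both called in ΔE8 against FL, none in the same direction. A difference between a member and its neighbour was not itself tested.

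**Figure D5:**
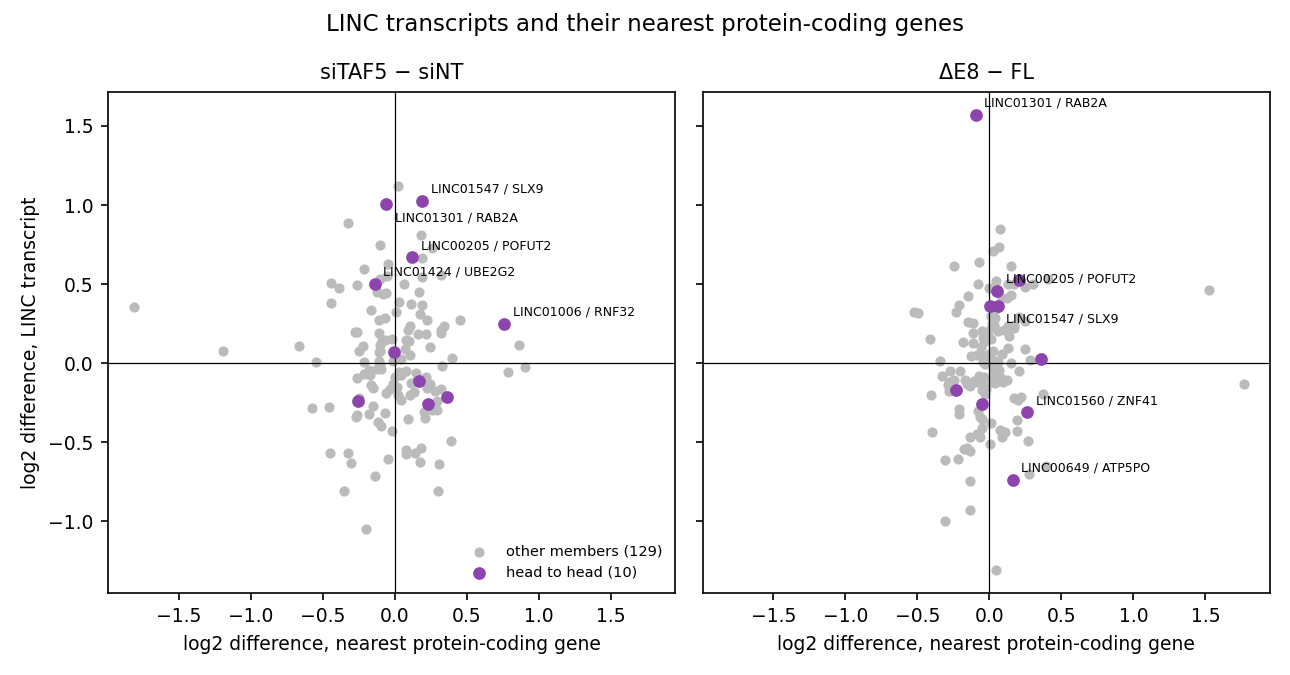
Log2 difference of each LINC transcript (vertical axis) against that of its nearest protein-coding gene (horizontal axis), once for siTAF5 against siNT and once for ΔE8 against FL, with the 10 head-to-head pairs in purple and named where edgeR called the LINC transcript. LINC01301 lies at 1.57 while RAB2A lies at -0.09 in ΔE8 against FL, and the Spearman correlations over the 139 members are 0.01 and 0.18.

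Other neighbours of the furthest movers moved to either side. TRAF5, a signalling adaptor gene 7790 bases from LINC00467, fell after knockdown (log2 -0.33, adjusted p = 0.000192) as LINC00467 rose. XRCC5, which encodes the Ku80 repair protein, is 10742 bases from LINC01963 and was higher in FL than in siTAF5 by a log2 of 0.30 (adjusted p = 1.33e-09). RGS16, a regulator of G protein signalling, is 10865 bases from LINC01686 and, like it, was lower in both add-back groups than in siTAF5 (log2 -0.71 in FL and -0.75 in ΔE8, adjusted p = 2.94e-10 and 8.93e-10). H3-3A, a histone H3.3 gene 11571 bases from LINC01703, rose after knockdown (log2 0.33, adjusted p = 2.73e-10) and was lower in FL than in siTAF5 (log2 -0.39, adjusted p = 2.24e-11). PCDH7, the protocadherin gene nearest to LINC02506 at 850571 bases, was higher in FL (log2 0.58, adjusted p = 3.94e-12) where LINC02506 was lower.

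In 5 cases 2 members overlap each other. LINC00667 and LINC00526 start 772 bases apart on opposite strands of chromosome 18. LINC00667 rose in FL against siTAF5 from 15.9 ± 0.466 to 20.6 ± 1.44 CPM (log2 0.37, adjusted p = 5.23e-06), and LINC00526 measured 1.87 ± 0.189 and 2.20 ± 0.166 CPM (SD, n = 3; log2 0.24, SE 0.124, adjusted p = 0.114). LINC00652 and LINC00653 start 50 bases apart on opposite strands of chromosome 20, and LINC00652 was lower in siTAF5 than in siNT, at 3.59 ± 0.324 against 4.39 ± 0.314 CPM (adjusted p = 0.0109), while LINC00653 was at 0.563 ± 0.0780 against 0.664 ± 0.0467 CPM (SD, n = 3; adjusted p = 0.466). LINC01128 overlaps LINC00115, which passed the test in none of the 6 comparisons (adjusted p from 0.174 to 0.752), as did neither LINC01356 nor LINC01357, which overlap each other on chromosome 1 (adjusted p from 0.0564 to 0.894). The remaining case is the pair of LINC01605 rows, which overlap on the same strand. How reads common to both rows were counted is not stated.

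Of the members, 3 span a microRNA hairpin on their own strand. LINC00472, the host of MIR30A and MIR30C2, stood at 4.42 ± 0.495 CPM in siNT, 4.88 ± 0.415 in siTAF5, 3.40 ± 0.397 in FL and 3.89 ± 0.340 in ΔE8 (SD, n = 3), and was lower in FL than in siTAF5 (log2 -0.53, SE 0.109, adjusted p = 0.000426) and in ΔE8 than in siTAF5 (log2 -0.33, adjusted p = 0.018). LINC00461, the host of MIR9-2, a neural microRNA gene, was between 0.703 ± 0.0556 and 0.888 ± 0.105 CPM in the 4 groups, and LINC01138, the host of MIR5087, between 3.70 ± 0.0593 and 4.22 ± 0.383 CPM (SD, n = 3). Neither passed the test in any comparison, with adjusted p of at least 0.124 for both. The libraries measured polyadenylated RNA and not the microRNAs.

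The machinery that degrades or terminates such transcripts was described from 2 lists. Of 25 genes of the nuclear exosome and its cofactors, 12 were higher and 3 lower after knockdown, 16 and 5 in FL against siTAF5, 15 and 0 in ΔE8 against siTAF5, and 7 and 5 in ΔE8 against FL, with median log2 differences of 0.064, 0.121, 0.136 and -0.011. Those called were 60%, 84%, 60% and 48% of the list, against 57.5%, 56.9%, 49.6% and 43.8% of the protein-coding genes tested. NCBP1, the large subunit of the nuclear cap-binding complex, rose after knockdown from 91.7 to 117 CPM on average (log2 0.35, SE 0.026, adjusted p = 9.47e-10). EXOSC9, a core exosome subunit, fell there (log2 -0.35, SE 0.039, adjusted p = 3.29e-07), rose in FL against siTAF5 (log2 0.53, SE 0.040, adjusted p = 1.14e-09) and was lower in ΔE8 than in FL (log2 -0.34, SE 0.039, adjusted p = 1.26e-06). SRRT, which links the cap-binding complex to the exosome, was higher than in siTAF5 in both FL and ΔE8 (log2 0.29 and 0.32, adjusted p = 1.41e-09 and 2.82e-09), and ZFC3H1, a subunit of the exosome-targeting connection for polyadenylated RNA, was higher in ΔE8 than in FL (log2 0.31, adjusted p = 1.93e-06). Of 14 tested Integrator genes out of 15, 9 were higher and 3 lower after knockdown, 7 and 5 in FL against siTAF5, 8 and 2 in ΔE8 against siTAF5 and 5 and 3 in ΔE8 against FL, or 85.7%, 85.7%, 71.4% and 57.1% of those tested. INTS13 fell after knockdown from 86.4 to 60.3 CPM (log2 -0.52, SE 0.031, adjusted p = 7.15e-11), and INTS5 rose from 25.5 to 37.2 CPM (log2 0.55, SE 0.041, adjusted p = 1.25e-09) and was higher in ΔE8 than in FL (log2 0.34, SE 0.040, adjusted p = 1.22e-06). Their part in the levels of the LINC transcripts was not tested.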

How the data were processed

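The authors deposited 1 table of estimated counts per gene from stranded mRNA libraries, with no normalization that the values show, and 46.5% of its entries are fractional. Per the submitters' processing notes, cutadapt 1.18, STAR 2.7.0f, Partek 10.0.23.0531 and DESeq2 were used with hg38. The quantifier and whether it used strand are not stated there. The design was written for counts, so values were rounded, which moved no library total by more than 91.27 counts.

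The members, lists and tests were chosen with earlier results of these data known. R 4.3.3 and edgeR 4.0.16 were used: filterByExpr (minimum count 10, 19424 genes), TMM scaling, and 1 quasi-likelihood fit of 12 libraries with no block, with two-sided tests and p-values adjusted by Benjamini and Hochberg's method over all genes (threshold 0.05). The procedure was tested on simulated data. The SE is the log2 difference divided by the root of F. CPM in the text are TMM-scaled, while the 0.5 limit used plain library totals. Table stop positions had 1 base taken off.

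Named members were the 8 highest and, with adjusted p under 0.05 and no overlap of groups, the 6 furthest each way in the main 4 comparisons and 3 each way in the others, with their nearest protein-coding gene and the 3 smallest adjusted p of each machinery list. Alternatives were other scalings, DESeq2 1.42.0, other filters, level limits and subsets, the 6 libraries alone, a replicate block and leaving out each library.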

Additional observations from a re-analysis of the deposited data

How the results depend on the processing

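No named result reversed: of 756 values of named members under alternative settings, 728 kept their side of the threshold and 28, of 8 of the 60 named results, lost it, as given beside those members. Of 120 counts of called members under settings other than leaving out a library, 107 were within 1.5 times the main count. DESeq2 called 15 members lower in siTAF5 against siNT, and 4430 of all genes. Restricting the count to the 56 members that overlap no other gene left fewer members by construction. There were 13 higher and 11 lower (23.2% and 19.6%) in siTAF5 against siNT, and 9 and 14 (16.1% and 25.0%) in FL against siTAF5. It was 1 and 14 (1.79% and 25.0%) in ΔE8 against siTAF5, and 6 and 14 (10.7% and 25.0%) in ΔE8 against FL. Against siNT it was 7 and 18 (12.5% and 32.1%) in FL, and 9 and 23 (16.1% and 41.1%) in ΔE8. The shares of all genes in each comparison are given with the results above. Leaving out each library in turn gave, in the same order, 24 to 30 higher and 18 to 21 lower, 14 to 19 and 32 to 35, 6 to 9 and 18 to 25, 12 to 18 and 19 to 23, 20 to 23 and 24 to 32, and 23 to 26 and 34 to 38, and the 18 came from leaving out siTAF5 replicate 2. The counts over the subset or without a library rest on fewer members or samples, and the cause of these moves was not tested.

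Replicate numbers gave no pairing: same-numbered libraries of different groups had correlations of their deviations from -0.051 to 0.051, and differently numbered ones from -0.074 to 0.048. With a replicate block the counts were 31 higher and 22 lower, 19 and 38, 8 and 30, 16 and 24, 24 and 29, and 28 and 38 in the same order. Scaling by totals or upper quartiles moved the median log2 difference of all genes to between -0.053 and 0.034. For members under 1 CPM, a median SE of 0.223 limits what can be called, so a missing call there does not show equal levels.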
